A study of Mus musculus with 12 samples.

Results

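The Hox genes were described in 12 RNA libraries from cultures of primary motoneurons of CD-1 mice. Knockdown of Smn, the gene deficient in spinal muscular atrophy, was common to all of them. The cultures stood in microfluidic chambers, which hold axons apart from cell bodies and dendrites. Total RNA was taken from the axonal side in 6 libraries (axonal replicates 1 to 6) and from the somatodendritic side in 6 (somatodendritic replicates 1 to 6), and no library without the knockdown was analysed here. The members were the protein-coding genes whose symbol is Hox, a cluster letter from a to d and a number, which gave 38 of 39174 listed genes and used no measured value. Of these, 11 belonged to Hoxa, 10 to Hoxb, 9 to Hoxc and 8 to Hoxd, and Hoxd4 was not analysed here. The labels do not state the level of the spinal cord that was dissected or the age of the animals. Nor do they say whether replicates came from separate cultures, so each p-value reflects only how far these samples spread, which may be technical.

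Hox genes encode homeodomain transcription factors that give cells along the head-to-tail axis their regional identity. They stand in 4 clusters, and genes at matching places in different clusters form 13 paralog groups, numbered from the end of the cluster expressed most anteriorly to the end expressed most posteriorly. In the developing spinal cord, groups 4 to 8 are known for motoneurons at brachial levels, group 9 for thoracic levels and group 10 for lumbar levels, while group 1 and 2 genes act in the hindbrain and group 13 genes at the tail end. Hox proteins bind DNA together with TALE homeodomain cofactors of the Pbx and Meis families, and their genes are held silent by Polycomb complexes and kept active by Trithorax complexes.

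The libraries were shallow, and Hox genes took a small part of them. Levels are given as FPKM, fragments scaled to transcript length and library total, after division by a scaling factor per library (scaled FPKM). The confidence bounds deposited with each FPKM implied 217000 to 718000 fragments per axonal library and 54800 to 359000 per somatodendritic library, with 54800 in somatodendritic replicate 4. The numbers implied for each Hox gene summed to 89 to 838 in axonal libraries and 12 to 288 in somatodendritic ones. The 12 was again in somatodendritic replicate 4. For all but 9 of the Hox genes such a number states only how wide the bounds are, so the sum is no fragment count. Their share of all protein-coding FPKM ran from 0.0846 to 0.268% on the axonal side and from 0.139 to 0.215% on the somatodendritic side. Smn1, the targeted gene, was listed above 0 in 7 of 12 libraries, at 0 to 56.2 scaled FPKM in axonal and 0 to 15.6 in somatodendritic ones, and with no untreated library its knockdown could not be checked. Of the 11 neuronal and motoneuron markers in the tables, Tubb3, Map2, Nefl, Nefm, Elavl4 and Rbfox3 were above 0 in all 12 libraries, with Tubb3 at 400 ± 113 (SD, n = 6) in axonal and 581 ± 89.7 (SD, n = 6) in somatodendritic libraries. Chat, the acetylcholine-synthesizing enzyme, and Mnx1, a motoneuron transcription factor, were listed at 0 in all 12, Isl1 at no more than 3.50 and Isl2 at no more than 5.75, so the tables identify neurons but not motoneurons by these defining markers.

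Hoxb8 and Hoxb9 dominated the Hox signal on both sides of the chamber. Over the 12 libraries they averaged 86.5 and 59.8 scaled FPKM, ranks 346 and 586 of 22736 protein-coding genes, and held 34.1% of the summed mean level of all Hox genes, which was 429 scaled FPKM. Hoxa9 followed at 35.5, Hoxd3 at 31.5, Hoxb7 at 25.5 and Hoxa7 at 22.6, and then Hoxa10 at 16.4, Hoxc10 at 15.5, Hoxb6 at 13.7, Hoxd10 at 10.5, Hoxd9 at 9.62 and Hoxc4 at 9.61. By cluster, Hoxb held 49.0% of the summed mean level, Hoxa 22.8%, Hoxd 15.5% and Hoxc 12.7%.

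**Figure D1:**
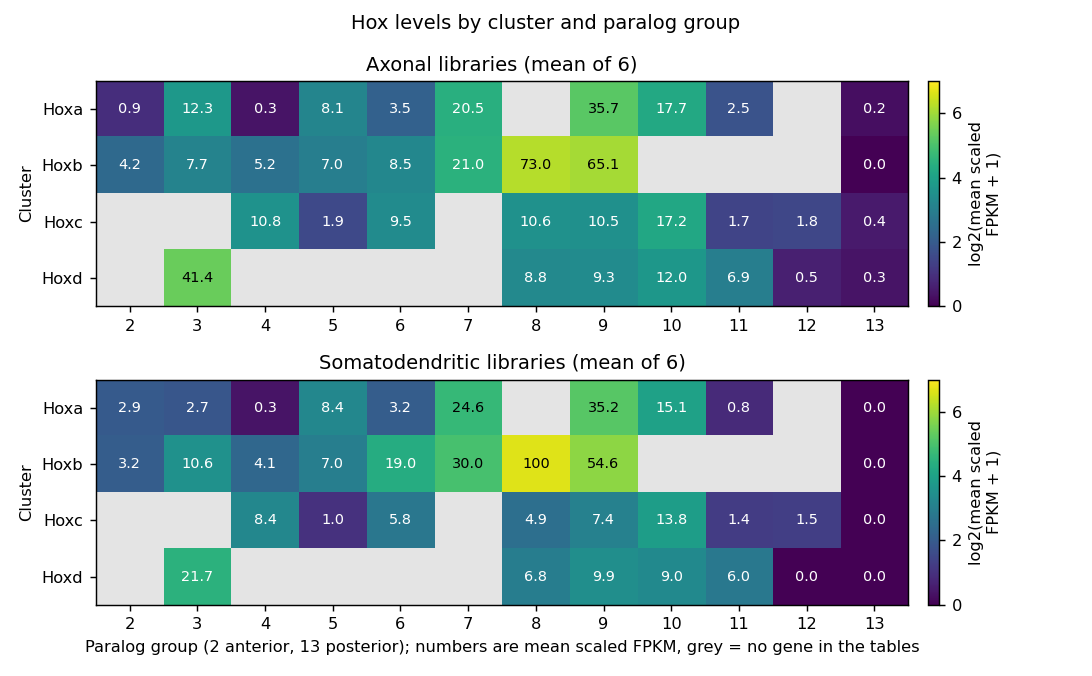
Mean scaled FPKM of each Hox gene, by cluster (rows) and paralog groups 2 to 13 (columns), in the 6 axonal (top) and 6 somatodendritic libraries (bottom). Colour gives log2(mean + 1), each cell prints the mean, and grey cells have no gene in the tables. In both panels Hoxb8 is highest, and groups 12 and 13 are low, Hoxc12 being the highest of them at 1.79 and 1.46.

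Within each cluster the level changed with paralog group. In Hoxb it increased stepwise from 0 at Hoxb1 through 3.71 at Hoxb2, 4.62 at Hoxb4, 7.01 at Hoxb5, 13.7 at Hoxb6 and 25.5 at Hoxb7 to 86.5 at Hoxb8, with Hoxb3 at 9.16 out of this order, then stood at 59.8 at Hoxb9 and was 0 at Hoxb13. In Hoxa the highest gene was Hoxa9, with Hoxa7 and Hoxa10 beside it, while Hoxa11 stood at 1.62 and Hoxa13 at 0.101. In Hoxc the highest gene was Hoxc10, one place further from the anterior end, followed by Hoxc11 at 1.54, Hoxc12 at 1.62 and Hoxc13 at 0.205. In Hoxd, leaving Hoxd3 aside, the highest was Hoxd10, followed by Hoxd11 at 6.45, Hoxd12 at 0.267 and Hoxd13 at 0.141. So group 12 and 13 genes were low in every cluster that has them, but Hoxc12 was no lower than Hoxc11. These are levels per transcript length, and each gene's value rests on how the authors' program divided fragments among its transcripts.

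Hoxb8 was among the 3 highest Hox genes in all 12 libraries, but its lead varied. Its values in axonal replicates 1 to 6 were 81.5, 38, 96.3, 70, 78.2 and 73.8 scaled FPKM, and in somatodendritic replicates 1 to 6 they were 102, 114, 127, 65.1, 100.3 and 91.9. The lowest was axonal replicate 2 and the highest somatodendritic replicate 3, and the groups overlapped. Hoxb8 was the highest Hox gene in 9 of 12 libraries, Hoxb9 in axonal replicates 1 and 6, and Hoxd3 in axonal replicate 2. Its bounds were as wide as those of 147 fragments in axonal replicate 1, 3.1 in somatodendritic replicate 4 and 12.3 to 71.3 in the other libraries, and Hoxb9 reached 248 in axonal replicate 1.

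Hoxb8 is shown at sequence level because it is the most abundant member and because its mRNA is a textbook target of miR-196, a microRNA encoded within the Hox clusters. RefSeq sequences on GRCm38.p6 give the mature miR-196 and miR-10 forms encoded there, with the seed (bases 2 to 8) in capitals. The mir-196a form is made from Mir196a-1 at chr11:96265187-96265208 (+) and from Mir196a-2 at chr15:102973365-102973386 (+), miR-196b at chr6:52230129-52230150 (-), miR-10a at chr11:96317186-96317208 (+) and miR-10b at chr2:74726074-74726096 (+).
mmu-miR-196a-5p: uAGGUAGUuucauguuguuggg
mmu-miR-196b-5p: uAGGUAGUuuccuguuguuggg
mmu-miR-10a-5p: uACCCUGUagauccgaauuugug
mmu-miR-10b-5p: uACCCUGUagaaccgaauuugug
Both miR-196 forms share one seed and both miR-10 forms another. In the Hoxb8 3′ UTR of GENCODE M21 the best match to miR-196a-5p lies at position 418 of 845, at chr11:96284888-96284909 (+, GRCm38.p6), with the bases opposite the seed in capitals.
Hoxb8 site: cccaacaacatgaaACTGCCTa
Of its 22 bases, 21 pair with the microRNA and the remaining one is a G:U pair, while the best match in any other Hox 3′ UTR, that of Hoxd8, had 15 paired bases. The exact complement of the miR-196 seed, ACTACCT on the transcript strand, is not in the Hoxb8 3′ UTR but is in those of 9 of 38 Hox genes, among them Hoxa7, Hoxa9, Hoxb6 and Hoxb7, against 6.2% of 20372 coding genes with a 3′ UTR. For the miR-10 seed the complement, ACAGGGT, is in 4 of 38, among them Hoxa3 and Hoxb3, against 12.7% of coding genes. These letters describe the transcripts and show no regulation here. The genes of miR-196a, miR-196b, miR-10a, miR-10b and miR-615 within the clusters, 6 in all, were listed at 0 in every library, and the sources used here do not say how the library preparation treats RNA this short.

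Promoter windows of RefSeq (GRCm38.p6, 250 bases before to 50 after the gene start) matched 21 of the 38 members, Hoxb9 and Hoxb13 not among them. Within Hoxb the window of the most abundant gene and that of Hoxb1, which was at 0 throughout, are shown with every CG in capitals, at chr11:96281655-96281954 (+) and chr11:96365508-96365807 (+).
Hoxb8 promoter: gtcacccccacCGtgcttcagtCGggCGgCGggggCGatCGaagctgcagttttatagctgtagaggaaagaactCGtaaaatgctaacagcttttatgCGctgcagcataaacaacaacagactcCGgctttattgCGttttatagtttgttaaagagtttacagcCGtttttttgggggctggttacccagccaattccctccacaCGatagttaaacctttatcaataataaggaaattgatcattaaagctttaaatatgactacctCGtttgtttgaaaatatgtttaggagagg
Hoxb1 promoter: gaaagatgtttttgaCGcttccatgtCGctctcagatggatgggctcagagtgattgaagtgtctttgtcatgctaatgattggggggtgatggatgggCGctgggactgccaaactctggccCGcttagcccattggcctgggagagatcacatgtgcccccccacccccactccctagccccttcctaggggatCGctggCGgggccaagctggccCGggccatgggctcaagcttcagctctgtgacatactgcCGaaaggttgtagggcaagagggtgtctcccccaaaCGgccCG
The Hoxb8 window has 13 CG and 42.3% G and C, the Hoxb1 window 10 CG and 59.3%. The 21 Hox windows had a median of 20 CG (4 in Hoxa9 to 45 in Hoxa13), against 7 over 32851 windows of all genes. The TATA box letters TATAAA, read on both strands, match 2 times in the Hoxb8 window and not in that of Hoxb1. They occur in 3 of 21 Hox windows (Hoxa10, Hoxb8 and Hoxd13), against 13.6% of all windows. The letters TGATTNAT, bound by Hox and Pbx proteins together, occur on either strand in the Hoxa2 and Hoxd11 windows only, 2 of 21, against 3.2% of all windows. A match is a run of letters in this window and not a shown site.

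Hoxb9, a group 9 gene, varied more between axonal libraries than Hoxb8. Its axonal values were 169, 43.4, 38.6, 37.2, 21.7 and 80.7 scaled FPKM in replicates 1 to 6, and its somatodendritic values were 77.6, 76.0, 40.1, 33.4, 51.6 and 49.0. Axonal replicate 1 held the highest value and axonal replicate 5 the lowest, so the axonal range enclosed the somatodendritic one. Its ratio to Hoxb8 ranged from 0.278 in axonal replicate 5 to 2.07 in axonal replicate 1, and was below 1 in 9 of 12 libraries. Hoxa9 was steadier, at 32.9, 36.0, 47.3, 23.1, 55.4 and 19.7 in axonal and 39.9, 33.8, 39.6, 27.0, 44.4 and 26.4 in somatodendritic libraries. Its somatodendritic values all lay inside the axonal range. The remaining group 9 gene among the 12 most abundant, Hoxd9, had 8.48, 19.2, 4.55, 6.74, 12.8 and 4.19 in axonal and 13.3, 3.86, 8.75, 15.8, 6.93 and 10.8 in somatodendritic libraries, again overlapping. Hoxc9, known for setting the thoracic motor columns, averaged 8.95 and was above 0 in all 12 libraries.

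Hoxd3, a group 3 gene, stood out from the other genes of groups 1 to 3, whose means were at most 9.16. Its axonal values were 71.6, 118, 16.0, 6.01, 12.6 and 24.7 scaled FPKM, and its somatodendritic values were 32.2, 15.2, 7.86, 41.6, 11.6 and 21.4. Axonal replicates 1 and 2 stood above the other 10 libraries, whose values ran from 6.01 to 41.6. In GENCODE M21, 2225 bases of the Hoxd3 exons (53.1%) belong also to the read-through gene Gm28230 and 388 to Hoxd4, both on the same strand and neither analysed here, so which of these transcripts the fragments came from cannot be told. Its bounds were as wide as those of 32.5 and 10.9 fragments in axonal replicates 1 and 2, and of at most 6.9 elsewhere.

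The group 10 genes, known for lumbar level, were each listed in at least 11 of 12 libraries at moderate levels. Hoxa10 had 17.9, 19.8, 24.2, 19.4, 10.9 and 13.9 scaled FPKM in axonal and 10.5, 24.5, 26.9, 0, 19.0 and 9.67 in somatodendritic libraries. Hoxc10 had 23.8, 13.2, 5.2, 17.3, 24.4 and 19.2 in axonal and 15.2, 7.35, 10.0, 18.0, 15.9 and 16.5 in somatodendritic libraries. Hoxd10 had 5.94, 12.7, 16.8, 9.71, 7.03 and 19.6 in axonal and 11.8, 14.8, 5.76, 0, 8.56 and 13.4 in somatodendritic libraries. All 3 genes overlapped between the compartments, and the values of 0 for Hoxa10 and Hoxd10 were in somatodendritic replicate 4, the shallowest library. Summed, they gave 42.3 to 52.7 on the axonal side and 18.0 to 46.7 on the somatodendritic side. Hoxc10 and Hoxc5 share 166 exon bases on the same strand, so their split is uncertain.

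Group 4 to 7 genes, known for cervical and brachial levels, held the next largest share in 11 of 12 libraries. Hoxb7 had 15.1, 29.2, 15.4, 11.4, 28.9 and 26.0 scaled FPKM in axonal and 25.7, 41.3, 38.5, 26.7, 20.5 and 27.5 in somatodendritic libraries. Hoxa7 had 14.7, 35.5, 21.2, 20.4, 25.3 and 6.07 in axonal and 13.4, 32.1, 34.2, 8.56, 32.0 and 27.5 in somatodendritic libraries. Hoxc4 had 15.2, 10.6, 14.1, 1.86, 11.0 and 12.1 in axonal and 11.1, 3.97, 15.1, 8.72, 5.56 and 5.99 in somatodendritic libraries. The compartments overlapped for each of these genes, and axonal replicate 4 was the low one for Hoxb7 and Hoxc4. Hoxa5, a gene with 1 transcript whose fragments could be read as whole numbers, rested on 59 fragments over the 12 libraries, 35 of them axonal, and averaged 8.26 scaled FPKM. Of the 11 members of groups 4 to 7, 6 were above 0 in all 12 libraries, and their means ran from 0.292 for Hoxa4 to 25.5 for Hoxb7.

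The ends of the clusters were sparse. Hoxb1 and Hoxb13 were listed at 0 in all 12 libraries, where 1 fragment would have given 0.6 to 7.86 FPKM for Hoxb1 and 0.631 to 8.27 for Hoxb13. Another 4 genes, Hoxa13, Hoxd1, Hoxd12 and Hoxd13, were above 0 in 1 library each, that library being axonal replicate 1 for Hoxa13 and axonal replicate 2 for the others. Hoxd1, Hoxd12 and Hoxd13, whose fragments could be read as whole numbers, rested there on 2, 2 and 1 fragments, and Hoxc13 on 3 over axonal replicates 1 and 2. No member of groups 12 and 13 passed the equivalent of 4 fragments in any library. These 5 genes were listed above 0 in axonal libraries alone, and axonal replicates 1 and 2 are the deepest libraries. At this depth a listed 0 does not show that a transcript was absent.

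The number of Hox genes listed above 0 was 32, 28, 27, 25, 27 and 25 in axonal replicates 1 to 6 and 28, 28, 23, 13, 25 and 26 in somatodendritic replicates 1 to 6. It was highest in the deepest library and lowest in the shallowest, and between 23 and 28 in the other 10. In all, 13 members were above 0 in every library, 36 in at least 1 axonal library and 31 in at least 1 somatodendritic library, and 149 of the 456 values were 0, 25 of them in somatodendritic replicate 4.

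**Figure D2:**
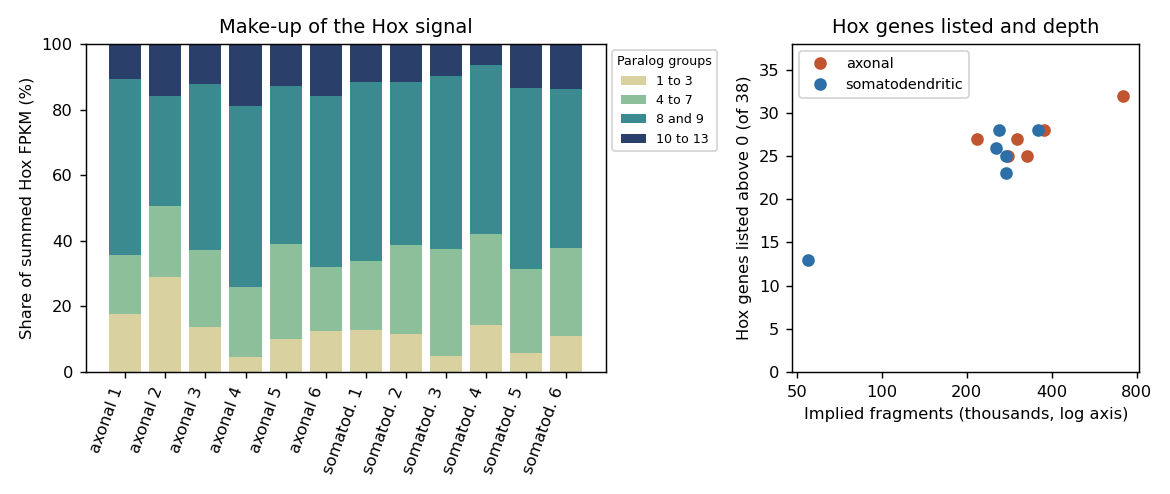
Left, share of each library's summed Hox FPKM in 4 ranges of paralog groups, in percent, for the 12 libraries. Right, number of Hox genes listed above 0 (of 38) against the fragments implied by the confidence bounds, on a log axis. Groups 8 and 9 hold 48.2 to 55.3% in 11 libraries and 33.5% in axonal replicate 2, and the shallowest library, with 54800 fragments, lists 13 genes.

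The make-up of the Hox signal by axial range was alike in most libraries. Groups 8 and 9 held 48.2 to 55.1% of the summed Hox FPKM in 5 axonal libraries and 33.5% in axonal replicate 2, and 48.4 to 55.3% in the somatodendritic libraries. The share of groups 1 to 3 ran from 4.41 to 29.0% on the axonal side and from 4.96 to 14.4% on the somatodendritic side. Groups 4 to 7 held 18.2 to 28.9% and 21 to 32.5%, and groups 10 to 13 held 10.6 to 18.9% and 6.27 to 13.8%. Axonal replicate 2, in which Hoxd3 alone reached 118, had 37.1% of its Hox FPKM in Hoxd and 26.6% in Hoxb, against 42.6 to 61.0% in Hoxb elsewhere. Mitochondrially encoded genes took 53.5% of FPKM in that library, against 9.71 to 26.4% in the other axonal and 10.4 to 12.0% in the somatodendritic libraries, and the part of this in its Hox make-up was not tested.

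Axonal and somatodendritic libraries were then compared to ask whether Hox mRNAs differ in abundance between the compartments. No Hox gene was called. Of the 38 members, 29 had a mean FPKM of at least 1 and were tested with limma on log2(scaled FPKM + 1), and 0 had an adjusted p below 0.05 over all 13914 tested genes, among which 1 gene (0.00719%) was called, higher in axons. The smallest adjusted p of a Hox gene in limma was 0.425. At an unadjusted p below 0.05 stood 2 of the 29 (6.9%), 1 in each direction, against 8.9% of all tested genes (6.3% higher and 2.61% lower in axons), so the share was near the background. In no Hox gene were the 2 groups fully apart, as they were in 0.712% of all genes (0.417% higher and 0.295% lower in axons). The 9 untested members had a mean FPKM below 1 and came mostly from the ends of the clusters. In such bulk libraries fewer cells of a type and less RNA per cell cannot be told apart.

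The summed Hox level did not separate the compartments either. It was 439 ± 99.9 scaled FPKM (SD, n = 6) in axonal and 419 ± 74.0 (SD, n = 6) in somatodendritic libraries, a ratio of 1.05 that lay within the spread between libraries. The ratio was 0.928 with FPKM as deposited and 0.958 without somatodendritic replicate 4, so its direction depended on both choices. Without axonal replicate 1 it was 0.971. Over the other scalings and the sets of libraries left out it ran from 0.849 to 0.984. With 1 library left out it ran from 0.958 to 1.117. Across the 38 members the mean log2 levels of the compartments correlated with a Pearson r of 0.955, a description across genes that share library depth and transcript models.

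**Figure D3:**
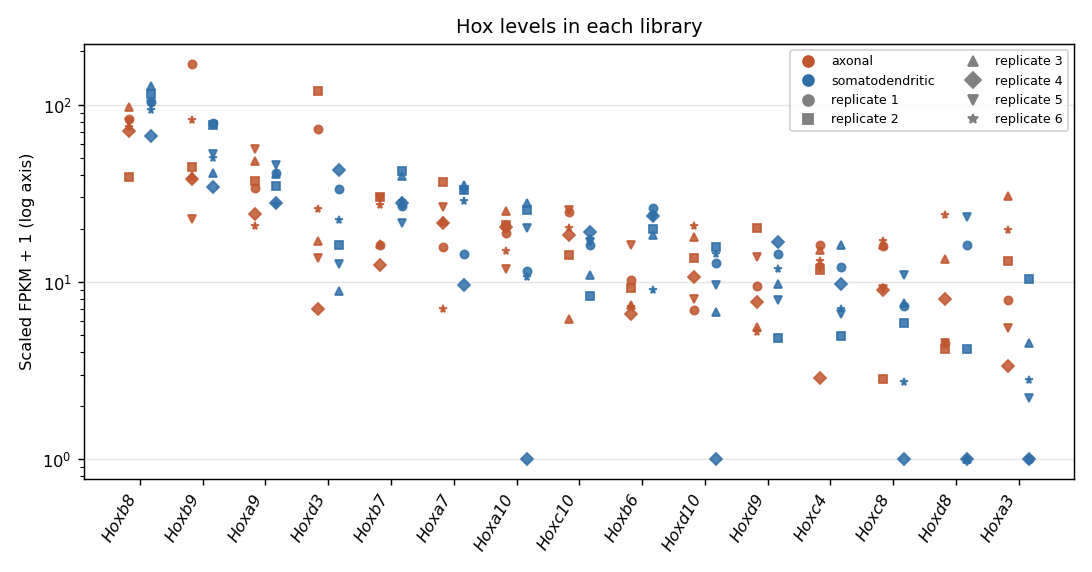
Scaled FPKM + 1 on a log axis for the 15 Hox genes of highest level or smallest p, ordered by mean level. Orange points are axonal and blue points somatodendritic libraries, and the marker shape gives the replicate number. Values of 0 lie at 1, and the groups overlap in every gene.

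The member lowest in axons by p was Hoxb6, a group 6 gene. Its axonal values were 9.22, 8.18, 6.46, 5.63, 15.1 and 6.24 scaled FPKM, and its somatodendritic values were 25.1, 18.9, 17.4, 22.4, 22.1 and 8.06. The somatodendritic values of replicates 1 to 5 lay above every axonal value, and replicate 6 lay inside the axonal range. The means were 8.48 ± 3.53 and 19.0 ± 6.01 (SD, n = 6 each), a 2.24-fold higher somatodendritic mean. The log2 fold change, axonal minus somatodendritic, was -1.07 ± 0.36 (SE), with an adjusted p of 0.425 by limma over all genes. It was -0.98 within replicates 3 to 6 and -1.35 within replicates 1 and 2, sets that differ in the share of FPKM in short non-coding RNA (12.9 to 22.0% against 5.61 to 8.68%). Its bounds were as wide as those of 1.1 to 18.0 fragments.

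Its neighbours Hoxb7 and Hoxb8 had the next smallest p among members lower in axons. For Hoxb8 the axonal mean was 73.0 ± 19.4 and the somatodendritic mean 100.1 ± 20.9 scaled FPKM (SD, n = 6 each), with a log2 fold change of -0.47 ± 0.24 (SE) and an adjusted p of 0.592 by limma. Somatodendritic replicates 1, 2, 3 and 5 exceeded every axonal library. The change was -0.29 without axonal replicate 2, -0.23 within replicates 3 to 6 and -1.06 within replicates 1 and 2. For Hoxb7 the means were 21 ± 7.92 and 30 ± 8.06 (SD, n = 6 each), with a log2 fold change of -0.54 ± 0.31 (SE) and an adjusted p of 0.614. Hoxb9, beside them in the cluster, gave -0.02 ± 0.41. Over Hoxb, 6 of 8 tested genes had a fold change below 0 and the cluster's median was -0.17, against 39.5% of genes below 0 and a median of 0.18 over all tested genes. The count was 6 of 8 also with FPKM as deposited, with equal FPKM sums and with quantile normalization. It was 3 of 8 without somatodendritic replicate 1 and 3 of 8 without somatodendritic replicate 2. In these 2 settings the Hoxb median was 0.018 and 0.085, against 0.193 and 0.188 over all tested genes. The cluster was not tested as a set.

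The member highest in axons by p was Hoxa3, a group 3 gene. Its axonal values were 6.87, 12.1, 29.4, 2.38, 4.47 and 18.7 scaled FPKM, and its somatodendritic values were 0, 9.40, 3.50, 0, 1.22 and 1.81. It was listed in all 6 axonal and 4 of 6 somatodendritic libraries, and somatodendritic replicates 2 and 3 lay within the axonal range. The means were 12.3 ± 10.2 and 2.66 ± 3.55 (SD, n = 6 each), the log2 fold change was 1.99 ± 0.68 (SE) and the adjusted p was 0.425 by limma. Within replicates 3 to 6 the change was 2.12 and within replicates 1 and 2 it was 1.66. The bounds of Hoxa3 were wide, in no library narrower than those of 3.7 fragments. For a gene whose numbers are not whole, this states the width of the bounds and not how many fragments were read. Hoxa3 has 4 transcripts and shares exon bases with 4 other genes on the opposite strand and 1 on the same strand, and whether reads keep their strand is nowhere stated, so sense and antisense transcripts cannot be told apart.

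Hoxc8 and Hoxd8, both group 8 genes, came next among members higher in axons. Hoxc8, known for its part in brachial motor pools, had 14.9, 1.82, 15.1, 8, 8.1 and 15.9 scaled FPKM in axonal and 6.32, 4.88, 6.64, 0, 9.87 and 1.71 in somatodendritic libraries. Axonal replicates 1, 3 and 6 lay above all somatodendritic values, and axonal replicate 2 near their low end. Its log2 fold change was 1.11 ± 0.63 (SE) with an adjusted p of 0.612 by limma. It was 0.64 without somatodendritic replicate 4, 1.63 within replicates 3 to 6 and -0.068 within replicates 1 and 2. Hoxd8 had 3.55, 3.18, 12.4, 6.98, 3.54 and 22.9 in axonal and 15.2, 3.19, 0, 0, 22.2 and 0 in somatodendritic libraries, with a log2 fold change of 1.19 ± 0.85 and an adjusted p of 0.692. The 3 values of 0 were all somatodendritic, the values above 15 came from both compartments, and its change was 2.18 within replicates 3 to 6 and -1.03 within replicates 1 and 2. Hoxd3, with 0.44 ± 0.62 and an adjusted p of 0.844, rested on axonal replicates 1 and 2, since its change was 1.89 within replicates 1 and 2, -0.33 within replicates 3 to 6 and 0.016 without axonal replicate 2. Hoxb8, of the same paralog group as Hoxc8 and Hoxd8, had the opposite sign, and the difference between these group 8 genes was not tested.

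**Figure D4:**
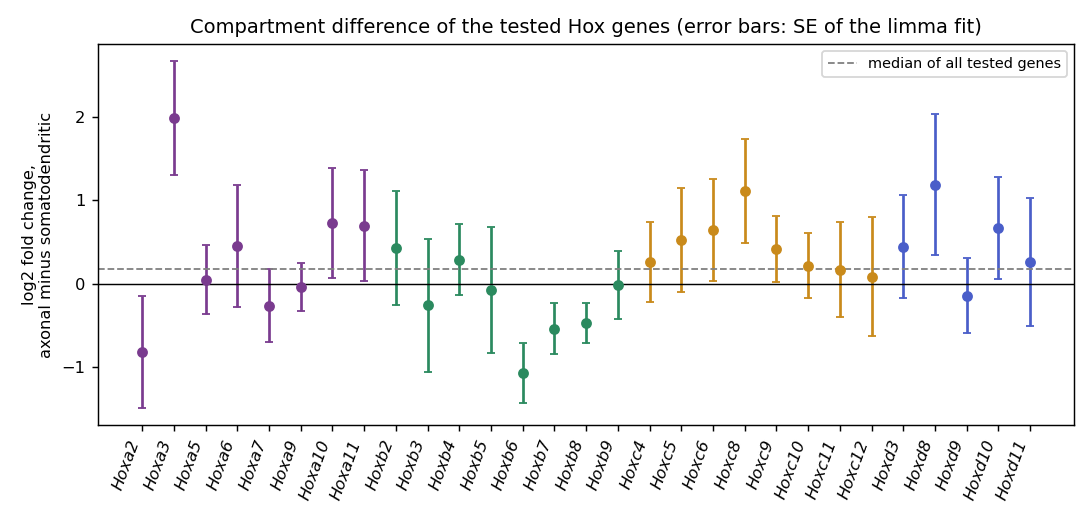
Log2 fold change (axonal minus somatodendritic, on log2(scaled FPKM + 1)) of the 29 tested Hox genes, ordered by cluster and paralog group. Points are limma estimates, error bars are 1 SE, colours mark the clusters, and the dashed line is the median of all 13914 tested genes (0.18). Hoxa3 at 1.99 and Hoxb6 at -1.07 lie farthest above and below 0.

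Over all 29 tested members, 19 (65.5%) had a fold change above 0 and 10 below, with a median of 0.26, against 60.5% above 0 and a median of 0.18 over all tested genes. By axial range, 3 of 5 tested genes of groups 1 to 3, 6 of 10 of groups 4 to 7, 3 of 7 of groups 8 and 9 and 7 of 7 of groups 10 to 13 were above 0. By cluster the counts were 5 of 8 in Hoxa, 2 of 8 in Hoxb, 8 of 8 in Hoxc and 4 of 5 in Hoxd. None of these genes was called, and counts about 0 moved with the scaling, which shifts all genes together. For groups 10 to 13 it was 5 of 7 with FPKM as deposited, 4 of 7 after rescaling to equal FPKM sums or quantile normalization and 3 of 7 without somatodendritic replicate 4. For Hoxc it was 6 of 8, 4 of 8 and 6 of 8 under these scalings and 6 of 8 without that library. Hoxa went to 4 of 8 under each of the 3 scalings, Hoxd to 3 of 5 with quantile normalization, and groups 4 to 7 to between 4 and 5 of 10. Read against the median of all tested genes, which was 0.18 as reported, 0.001 with FPKM as deposited, -0.067 with equal sums and -0.036 with quantile normalization, the sets moved less. For groups 10 to 13 the medians were 0.26, 0.087, 0.012 and 0.066, and for Hoxc 0.34, 0.12, 0.038 and 0.13, each above that of all genes. Other settings did not always keep this. Without somatodendritic replicate 4 the medians of groups 10 to 13 and of Hoxc were 0 and 0.261, against 0.038 over all genes. Within replicates 3 to 6 they were 0.254 and 0.051, against 0.195. Without axonal replicates 1 and 2 they were 0.115 and 0.162, against 0.159. With array weights they were 0.074 and 0.416, against 0.1. The SE of a single gene ran from 0.24 for Hoxb8 to 0.85 for Hoxd8, with a median of 0.61. Differences well above 1 SE could also go uncalled at this depth, as Hoxa3 at 1.99 ± 0.68 and Hoxb6 at -1.07 ± 0.36 did. Hoxa10 shows the weight of a single library, since its fold change of 0.73 ± 0.65 became -0.0005 without somatodendritic replicate 4, and Hoxd10 went from 0.67 to 0.05.

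Between and across the Hox genes the cluster spans held 40 other listed genes, of which 24 were at 0 in all libraries. Gm53, a protein-coding gene at the posterior side of Hoxb9, was above 0 in all 12 libraries, at 8.98 to 41.0 scaled FPKM in axonal and 6.99 to 22.7 in somatodendritic ones. All 10 antisense genes in the spans were above 0 in at least 1 library, the highest being 1700109F18Rik in Hoxd with a mean of 3.82. Hotair, an antisense RNA of Hoxc known in human cells for binding Polycomb proteins, was above 0 in 3 axonal and 0 somatodendritic libraries, at no more than 1.56. Exon bases were shared with another gene in 15 of 38 members, among them Hoxb3, of which 2250 bases (52.9%) are also those of the antisense gene Hoxb3os.

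Genes that act with or on Hox proteins were read from the same fit, and none was called. The counts hold for the scaling used, under which 60.5% of all tested genes had a fold change above 0. Of 9 TALE cofactors, all tested, 8 had a fold change above 0. Meis2 led with an axonal mean of 97.2 ± 65.0 and a somatodendritic mean of 71.8 ± 28.8 scaled FPKM (SD, n = 6 each), and Pbx3 stood at 30.3 ± 8.27 and 17.3 ± 12.3. Meis3, at 12.4 ± 7.79 and 2.91 ± 3.73, had the smallest adjusted p of the list, 0.387 by limma. Pbx4 was above 0 in 4 axonal and 0 somatodendritic libraries (adjusted p = 0.425), and it and Meis3 were named after their values were seen, as was Ezh2 among the Polycomb genes.

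Of 22 Polycomb genes, 21 were tested and 14 had a fold change above 0, with a median of 0.39. The highest were Rbbp4 at 43.6 scaled FPKM over all libraries, Rbbp7 at 31.5 and Jarid2 at 24.5. Ezh2, the histone H3 lysine methyltransferase of the complex, stood at 35.3 ± 21 in axonal and 12.3 ± 7.77 in somatodendritic libraries (adjusted p = 0.462 by limma). Of 12 Trithorax and MLL genes, 6 were above 0 and 6 below, with Dpy30 at 84.2, Psip1 at 32.3 and Ash2l at 23.1 the highest. Of 18 upstream axial regulators, 7 were tested, 4 above 0, and the highest were the retinoid receptors Rxrb at 12.5 and Rxra at 7.81 and the ligand Gdf11 at 7.38. Cdx1 and Cdx4, which activate Hox genes in the tail bud, Fgf8, Wnt3a and the retinoic acid enzymes Aldh1a2 and Cyp26c1 were listed at 0 in all 12 libraries.

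Of 14 genes listed for motor columns and motoneurons, 6 were tested and 5 had a fold change above 0. Lhx1, a lateral motor column factor, averaged 18.4 scaled FPKM, Foxp1, the Hox cofactor of limb-level motoneurons, 10.0, and Etv4, a motor pool factor, 9.16, while Mnx1, Chat and Aldh1a2 were at 0. With Mnx1 and Chat at 0, these levels cannot be assigned to motor columns. Another 12 genes were listed as regional genes of forebrain, midbrain and anterior hindbrain. Of these, 2 were tested (Barhl1 at 2.15 and Lhx2 at 1.76, both with a fold change below 0), and Emx1, Emx2 and Six6 were at 0. The 12 summed to at most 13 on the axonal side and 15.3 on the somatodendritic side. The Hox genes summed to 293 to 597 and 288 to 485. Whether each listed gene is confined to those regions was not tested. The sum is therefore no measure of tissue in front of the Hox domain.

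Markers of other cell types were present beside the Hox genes. The 10 astrocyte and radial glia markers summed to between 173 and 797 scaled FPKM on the axonal side and between 288 and 358 on the somatodendritic side, with Vim at 252 ± 153 and 80.6 ± 35.7 (SD, n = 6 each, adjusted p = 0.384 by limma), Fabp7 at 116 ± 70.4 and 112 ± 11.0 and Slc1a3 at 64.5 ± 61.0 and 81.2 ± 33.9. The 8 oligodendrocyte lineage markers summed to 8.47 to 63.6 and 12.3 to 61.0, led by Olig1, Olig2 and Mbp, and the 7 microglia and macrophage markers to 0.290 to 166 and 15.0 to 45.3, led by Tyrobp, Aif1 and C1qb. The 9 fibroblast and mesenchyme markers summed to no more than 13.9 and 2.90, with Dcn and Tbx18 at 0, and the 6 Schwann cell and neural crest markers to no more than 21.5 and 13.4, mostly Pmp22. The skeletal muscle, endothelial and erythroid markers summed to no more than 28.0, 22.4 and 26.9 in any library. Cldn5, Tek and Hbb-bh1 were at 0. Hbb-y, an embryonic globin, was above 0 in 6 of 6 axonal and 0 of 6 somatodendritic libraries (adjusted p = 0.0691 by limma). Over all tested genes, 0.417% had every axonal value above every somatodendritic one. Alas2, the other tested erythroid marker, went the other way, with means of 0.889 in axonal and 2.36 in somatodendritic libraries (adjusted p = 0.777 by limma). None of these markers was called, and their part in the Hox values was not tested.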

How the data were processed

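Gene tables of 12 libraries were used, grouped and numbered by the sample titles. The authors deposited FPKM with lower and upper confidence bounds per gene, as the file headers show. The submitters' processing notes name GRCm38, FastQC 0.10.1 and Cufflinks 2.2.1. Aligner settings, annotation release and strand are not stated there. An FPKM is relative to a library's total, so libraries rich in mitochondrial RNA have lower values elsewhere.

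Each library was divided by a median-of-ratios factor from 5607 genes above 0 in all of them. The test was limma 3.58.1 (R 4.3.3, trend and robust, two-sided) on log2(scaled FPKM + 1), a scale that understates changes of low genes, with compartment as the only term, a mean FPKM filter of 1 (13914 genes) and Benjamini-Hochberg adjustment at 0.05 over all of them; Hox rows were read from it. It was tested on simulated data. Sums, counts and shares were computed with Python 3.11.15, numpy 2.4.6 and pandas 2.3.3, and figures with matplotlib 3.10.9.

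The square of 2 × FPKM over its distance to the upper bound gives a fragment number. Among 2935 single-transcript genes, 69.6% of values up to 50 fragments lay within 0.05 of a whole number, against 28.6% for genes of 4 or more transcripts and 10.0% with no steps. For 9 Hox genes all values were whole; for the others the number states only how wide the bounds are. Since these numbers were mostly not whole for genes of several transcripts, no count test was made.

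GENCODE M21 and RefSeq (GRCm38.p6) served for exons, 3′ UTRs (longest per gene) and sequences; gene IDs of all 38 members were found. Members given in every library were the 12 of highest mean and the 3 tested ones of smallest p in each direction (15 in all, none being called); 3 tested genes of highest mean were named per other list. Some items are not reported here. The members, lists, tests and alternatives were chosen with earlier results of these data known, and the sequences shown after the levels were seen. Lists were described by counts and medians. Alternatives were other scalings, pseudocounts, filters and moderation, array weights, a rank-sum test, a replicate block, sets of replicates and each library left out.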

Additional observations from a re-analysis of the deposited data

Results flagged for a closer look

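In all, 50 groups of 6 values were tested for an outlying library. In 6 of them the extreme value stood apart by more of the whole range than Dixon's 95% critical value allows. Among independent groups, chance alone would set about 1 in 20 apart in this way. The groups here are not independent, since the shares of one library add up to the whole. The count is therefore not read against that rate. Hoxa3 in somatodendritic replicate 2 stood at 9.40 scaled FPKM, against 0 to 3.50 in the other somatodendritic libraries. Hoxc4 in axonal replicate 4 stood at 1.86, against 10.6 to 15.2 in the other axonal libraries. The number of Hox genes listed above 0 was 13 in somatodendritic replicate 4, against 23 to 28 in the others, and that library had 54800 implied fragments, against 253000 to 359000. The share of Hox FPKM in Hoxc was 7.53% in somatodendritic replicate 2, against 10.6 to 12.1%. In axonal replicate 2, Hoxd held 37.1% of Hox FPKM, against 10.1 to 18.8% in the other axonal libraries, and groups 8 and 9 held 33.5%, against 48.2 to 55.1%.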

How the results depend on the processing

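No Hox gene was called under any of 28 alternatives, 16 of them settings and 12 leaving out 1 library each. The number of genes called in all, 1 as reported, was 3 with a pseudocount of 0.1, 3 with plain moderation, 5 with array weights, 0 with the exact rank-sum test (7.64% of genes had an unadjusted p below 0.05; its smallest p with 6 against 6 was too large to pass the adjustment here, so this says nothing about stability), 7 without axonal replicates 1 and 2, 5 without these and somatodendritic replicate 4, 6 with replicates 1 and 2 set against 3 to 6 by a term, 7 within replicates 3 to 6, 0 within replicates 1 and 2 (5.69% at an unadjusted p below 0.05), and between 1 and 11 with 1 library left out, the 11 being without axonal replicate 6. The replicate block gave 5 genes, none of them Hox, and Hoxa3 then had an adjusted p of 0.418 by limma. Deviations of same-numbered libraries correlated at 0 to 0.242, and 3 of 6 correlated best with their own number. These values do not settle whether same-numbered libraries are pairs. The labels do not state it, so the block was kept as an alternative.

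Of the 15 Hox genes given in every library, Hoxa3, Hoxb6, Hoxb7 and Hoxb8 kept their direction under all 28 alternatives. Some of these could not change a sign, as they leave the fold change as reported. They are the other filters, plain moderation, the rank-sum test, the replicate block and the term for replicate sets. Hoxa3, Hoxb6, Hoxb7 and Hoxb8 were also among the members chosen for smallest p in the same data. The fold change changed sign for Hoxc10 with FPKM as deposited (-0.019), a common sum (-0.11) and within replicates 3 to 6 (-0.014); for Hoxc4 with a common sum (-0.026) and within replicates 3 to 6 (-0.010); for Hoxb9 with array weights (0.13); for Hoxd3 without axonal replicates 1 and 2 (-0.46), without these and somatodendritic replicate 4 (-0.27) and within replicates 3 to 6 (-0.33); for Hoxa10 without those 3 libraries (-0.065); and within replicates 1 and 2 for Hoxb9 (0.042), Hoxa7 (0.018), Hoxd10 (-0.66), Hoxd9 (0.63), Hoxc8 (-0.068) and Hoxd8 (-1.03). With 1 library left out, the sign changed also at one end for Hoxb9, Hoxd9, Hoxa9, Hoxa7 and Hoxa10; with the sets of libraries left out included, the range was -0.54 to 0.22 for Hoxb9, -0.46 to 0.83 for Hoxd3 (1.89 within replicates 1 and 2), -0.71 to 0.022 for Hoxa7, -0.065 to 0.99 for Hoxa10, and, for single libraries, -0.37 to 0.018 for Hoxd9 and -0.18 to 0.10 for Hoxa9. The cause was not tested. The median fold change of all genes, 0.18 as reported, was 0.001 with FPKM as deposited, -0.07 with a common sum, -0.04 with quantile normalization and 0.04 without somatodendritic replicate 4, so a Hox direction holds relative to these values. The 9 Hox genes with whole fragment numbers had at most 16 fragments in a library, the 16 being Hoxa5 in axonal replicate 1. For the other members the bounds do not give the number of fragments.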
